A study of Homo sapiens with 24 samples.

Results

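GRIN2C and the other genes named for the NMDA receptor were followed through RNA sequencing of SK-HEP-1 cells with and without activation of p53. The 8 genes were taken from the gene table by symbol (GRIN1, GRIN2A, GRIN2B, GRIN2C, GRIN2D, GRIN3A, GRIN3B and GRINA) and are 8 of the 58825 genes in it. SK-HEP-1 is an established human cell line that was derived from a tumour of the liver, and all 24 libraries come from sublines made for CRISPR interference, in which a guide RNA directs an inactive Cas9 with a repressor to a promoter. The lines carried guides against PURPL, a long noncoding RNA (sg2, sg4, sg5 and sg6), or non-targeting guides (NTC1 and NTC2), and each guide is represented by 1 established line, so guide and line cannot be told apart. Cultures of every line received 10 µM Nutlin-3a, which frees p53 from MDM2, or the vehicle DMSO, for 6 h. Each of the 12 combinations has libraries numbered 1 and 3 in the sample titles, which are biological replicates per the labels. They are called harvests 1 and 3 here. The titles do not say whether libraries of the same number were collected together. The members were chosen by name, but the family was selected on the measured log2 change of GRIN2C with Nutlin-3a in the NTC lines. The values of all members in that contrast are therefore given without a test, and the response was tested in the 4 PURPL lines, whose libraries did not enter that choice.

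NMDA receptors are glutamate-gated cation channels of 4 subunits that open when glutamate and glycine or D-serine are bound and the membrane is depolarised. GRIN1 encodes the obligatory glycine-binding subunit GluN1, without which no functional channel reaches the cell surface. GRIN2A to GRIN2D encode the glutamate-binding GluN2 subunits, of which GluN2C is best known from cerebellar granule cells and GluN2D from the developing brainstem and interneurons, and GRIN3A and GRIN3B encode the glycine-binding GluN3 subunits. GRINA, despite its name, is not a channel subunit: it encodes TMBIM3, a multi-pass membrane protein of the TMBIM family, which is known for protection from cell death and for control of calcium in the endoplasmic reticulum.

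Because reads of related genes can be split by the counting, the coding sequences of the family were compared with that of GRIN2C. Over aligned codons 64.3% of bases were the same in GRIN2D, 56.0% in GRIN2A and 55.5% in GRIN2B, and 42.8% to 48.6% in GRIN1, GRIN3A and GRIN3B. None of the 8706 stretches of 50 bases in GRIN2C transcripts occurred in a transcript of another gene, and the same held for GRIN2D.

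GRIN2C (ENSG00000161509.14) lies on the minus strand of hg38 chr17:74842023-74861504, with 5 annotated transcripts and 8574 bases of merged exons at 63.0% GC. GRIN1 is at chr9:137138390-137168762 (plus strand), GRIN2A at chr16:9753404-10182754 (minus), GRIN2B at chr12:13437942-13981957 (minus) and GRIN2D at chr19:48394875-48444931 (plus). GRIN3A is at chr9:101569353-101738580 (minus), GRIN3B at chr19:1000419-1009732 (plus) and GRINA at chr8:143990058-143993415 (plus). GRIN2C and GRIN2D share no exonic base with an overlapping gene. GRINA shares 324 with PARP10 on the opposite strand, and 8.26% of the stretches of 50 bases in its transcripts occur there too. GRIN3B shares 85 with TMEM259, GRIN1 5 with LRRC26, and GRIN2B 263 and 546 with a pair of noncoding genes. The strand setting of the counting is not given in the sources used here, so the counts of these genes are less certain.

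Library totals lay between 66.4 M and 92.1 M estimated counts (M, 1e6 counts), with a median of 74.2 M, and levels are given as CPM, counts per 1e6 counts of the library, after TMM normalisation. The library of sg2 with Nutlin-3a from harvest 1 stood apart. Per 10 points of GC content (in percent of a gene's transcript bases), its log2 levels over those of the median library increased by 1.47. This GC slope was -0.194 to 0.326 elsewhere (23 libraries). The library, named divergent here, was left out of the main tests and its values are given separately, since all 3 testable members are GC-rich (62.35% to 68.96%, against a median of 48.2% for the genes tested). The labels class the cells as endothelial. Of 10 endothelial markers 2 passed the expression filter, EGFL7 with 23 to 2430 counts and ESAM with 14 to 58. VWF, TEK and TIE1 did not pass, with at least 1 count in every library and at most 24, 16 and 18. The highest counts of EGFL7, ESAM, VWF and TIE1 were in the divergent library. The 10 markers summed to 29.1 CPM there, against 0.827 to 2.39 CPM in the other 11 Nutlin-3a libraries and 0.749 to 1.53 CPM with DMSO. ERG was at 0 in every library, and PECAM1, CDH5, KDR and CLDN5 reached at most 2, 4, 1 and 2 counts. Of 6 hepatocyte markers 1 passed, and of 5 mesenchymal markers 5 passed. Of 5 markers of cerebellar granule cells, the neurons in which GluN2C is best known, GABRA6, CBLN1 and ZIC1 were at 0 in all 24 libraries. NEUROD1 did not pass the filter, and CBLN3 passed it with 11 to 53 counts in every library, the 53 in the divergent library. Of 12 neuronal markers 6 passed the filter, with a summed level of 7.87 to 10.0 CPM in 11 Nutlin-3a libraries and 7.11 to 9.48 CPM in 12 DMSO libraries. Relative to the NTC lines, PURPL itself fell by 4.06 with Nutlin-3a and fell by 3.92 with DMSO on the log2 scale in the lines with guides against it (SE 0.17 and 0.29, edgeR adjusted p = 4.88e-05 and 0.0127).

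Transcripts of the obligatory subunit were at the limit of detection. GRIN1 had 25 counts in all 24 libraries together, was at 0 in 13 of them and had at most 3 counts outside the divergent library, which had 7. A library with 0 counts allows a level of up to 0.0326 to 0.0452 CPM, the value of 3 counts at these depths, and this limit covers counting error only. GRIN2A had 1 count each in 2 libraries, and GRIN2B and GRIN3A had 1 count in 1 library each, out of 24. GRIN3B was at 0 in 6 libraries and had 1 to 6 counts in the others, except for 130 in the divergent library. These 5 genes did not pass the expression filter, which asked for about 10 counts in at least 2 libraries and a total of 15. They were not tested, and no difference in them was detectable at this depth.

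The 3 members that passed were GRIN2C, GRIN2D and GRINA, so 3 of 8 members could be tested. Per kilobase of merged exons, the mean level over 23 libraries was 8.10 CPM for GRINA, 0.207 CPM for GRIN2C, 0.0325 CPM for GRIN2D, 0.00582 CPM for GRIN3B and 0.00154 CPM for GRIN1. This order depended on the treatment at 1 place. With Nutlin-3a GRIN2C had 0.419 CPM per kilobase and GRIN2D 0.0287, whereas with DMSO GRIN2C had 0.0128 and GRIN2D 0.0360. Among the genes for channel subunits, then, GRIN2C was the most abundant with Nutlin-3a and GRIN2D with DMSO. In the DMSO libraries their counts overlapped, at 2 to 17 for GRIN2C and 4 to 31 for GRIN2D. Since these are bulk samples, expression in a few cells and low expression in all of them cannot be told apart.

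**Figure D1:**
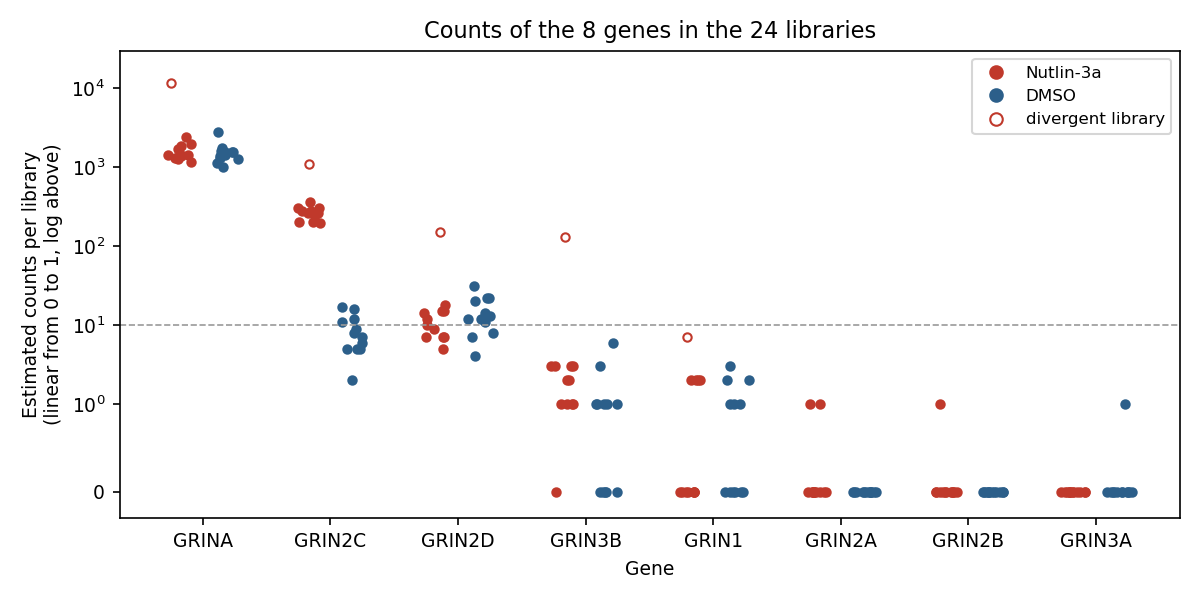
Estimated counts of the 8 genes in each of the 24 libraries, Nutlin-3a (red) left of DMSO (blue), on an axis that is linear from 0 to 1 and logarithmic above, with the divergent library as an open circle and a dashed line at 10 counts. GRIN2C separates by treatment, with 195 or more counts in every Nutlin-3a library and at most 17 in every DMSO library, GRINA and GRIN2D overlap between treatments, and the other 5 genes stay at 6 counts or fewer outside the divergent library.

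GRIN2C was higher with Nutlin-3a than with DMSO in every line and both harvests. In sg2 it had 3.77 CPM with Nutlin-3a in harvest 3 and 12.5 CPM in the divergent library, against 0.0249 and 0.0913 CPM with DMSO. In sg4 it had 3.58 and 3.21 CPM with Nutlin-3a, against 0.131 and 0.106 CPM with DMSO. The harvests of sg4 differed little beside the distance between treatments. In sg5 the values were 2.90 and 5.08 CPM with Nutlin-3a, against 0.0678 and 0.171 CPM with DMSO. In sg6 they were 2.77 and 3.56 CPM with Nutlin-3a, against 0.0894 and 0.0738 CPM with DMSO. The lowest Nutlin-3a library of the PURPL lines was thus far above their highest DMSO library, and the groups did not overlap. Summed over libraries this is 1828 counts in 7 Nutlin-3a libraries, against 56 counts in 8 DMSO libraries, so the level with DMSO rests on 2 to 12 counts a library.

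In the edgeR quasi-likelihood test GRIN2C rose by 5.27 on the log2 scale in the PURPL lines, or 38.6-fold (SE 0.24, adjusted p = 5.83e-11, mean of 4 lines, 7 libraries against 8). It was 1 of the 3 members tested that changed, where 39.6% of the 16237 genes tested changed, 16.3% upward and 23.2% downward. Counted from the largest rise in log2 change, it ranked 8th of all genes tested. CDKN1A and MDM2, the textbook p53 targets that encode the cell cycle inhibitor p21 and the ubiquitin ligase of p53, rose by 3.85 and 3.21 in the same test (SE 0.08 and 0.07, edgeR adjusted p = 2.04e-15 and 1.07e-14). With all 24 libraries the GRIN2C change was 5.56 (SE 0.35, edgeR adjusted p = 2.52e-08), and with each library's trend on GC content removed from the 23 libraries it was 5.09 (SE 0.19, edgeR adjusted p = 2.49e-13). In single lines the change was 5.96 in sg2, 4.81 in sg4, 5.07 in sg5 and 5.24 in sg6, with standard errors of 0.45 to 0.54 and edgeR adjusted p-values of 1.05e-06 to 2.61e-06. The share of all genes tested that rose was 3.25% in sg2, 5.27% in sg4, 6.94% in sg5 and 5.61% in sg6. Differences among the 4 lines were not tested. The value for sg2 rests on 1 Nutlin-3a library, whose spread was taken to be that of the other groups.

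In the NTC lines, whose response singled the gene out, GRIN2C had 4.24 and 3.56 CPM in NTC1 and 3.03 and 3.82 CPM in NTC2 with Nutlin-3a. With DMSO it had 0.225 and 0.0972 CPM in NTC1 and 0.178 and 0.0577 CPM in NTC2. The log2 change was 4.70 for the mean of both lines (SE 0.31), with 4.60 in NTC1 and 4.80 in NTC2. That mean was the 12th largest rise of all genes tested and is a description only. In that contrast 25.4% of genes changed. Over the 11 pairs of line and harvest outside the divergent library, the ratio of the GRIN2C level with Nutlin-3a to that with DMSO ran between 17.0 and 66.3, with a median of 31.0.

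**Figure D2:**
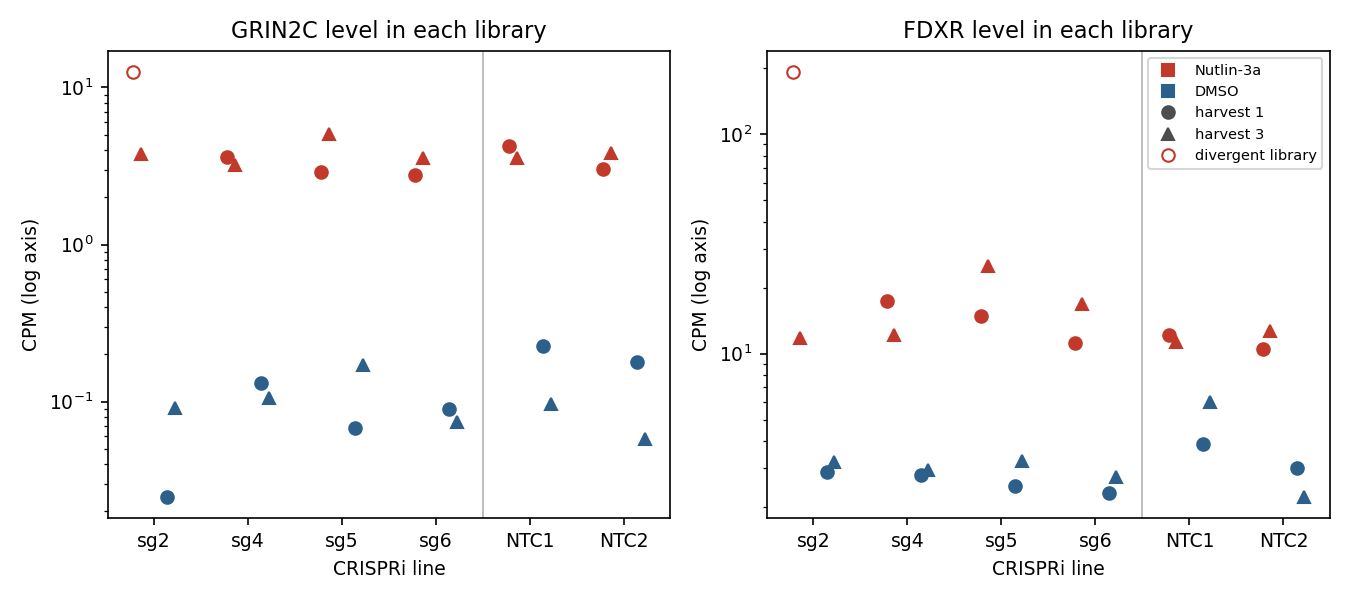
Levels of GRIN2C (left) and of its neighbour FDXR (right) in CPM on log axes, by line, with Nutlin-3a (red) left of DMSO (blue), harvests 1 and 3 as circles and triangles, and the divergent library as an open circle. GRIN2C lies between 2.77 and 5.08 CPM with Nutlin-3a outside the divergent library and between 0.0249 and 0.225 CPM with DMSO, and FDXR between 10.4 and 25.1 CPM with Nutlin-3a and between 2.23 and 5.99 CPM with DMSO.

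The gene next to GRIN2C rose as well. FDXR, at chr17:74862497-74873031, encodes ferredoxin reductase, a mitochondrial flavoprotein that passes electrons to ferredoxin for steroid and iron-sulfur cluster synthesis, and it is a described p53 target. It lies on the same strand, 992 bases upstream of the annotated start of GRIN2C, so that both genes are transcribed in the same direction with FDXR first. In the PURPL lines FDXR had between 11.1 and 25.1 CPM with Nutlin-3a, with a median of 14.8 CPM (n = 7), against 2.32 to 3.23 CPM with DMSO, with a median of 2.84 CPM (n = 8). These groups did not overlap, and the divergent library had 192.3 CPM. FDXR rose by 2.38 on the log2 scale (SE 0.15, edgeR adjusted p = 2.4e-09), and by 3.17 with all 24 libraries (SE 0.39, edgeR adjusted p = 2.55e-05). In the NTC lines its change was 1.66, given as a description. FDXR ranked 86th from the largest rise in the PURPL lines, where GRIN2C ranked 8th.

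Per kilobase of exon the level of GRIN2C stayed below that of FDXR in every library, but the proportion differed by treatment. GRIN2C was at 8.26% to 14.6% of FDXR with Nutlin-3a, with a median of 11.0% (n = 11), and at 2.74% in the divergent library, against 0.363% to 2.49% with DMSO, with a median of 1.35% (n = 12). The treatments did not overlap in this proportion. Of the other 5 nearest genes with a row in the table, AC087651.1 and USH1G did not pass the filter. TMEM104, on the opposite strand and 2243 bases beyond the end of GRIN2C, had a log2 change of -0.19 (SE 0.16) in the PURPL lines. NAT9, an N-acetyltransferase gene, had 0.25 (SE 0.12), and SLC9A3R1, which encodes the PDZ scaffold NHERF1, had 0.10 (SE 0.10). None of these 3 passed the edgeR test, at adjusted p = 0.366, 0.108 and 0.463.

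**Figure D3:**
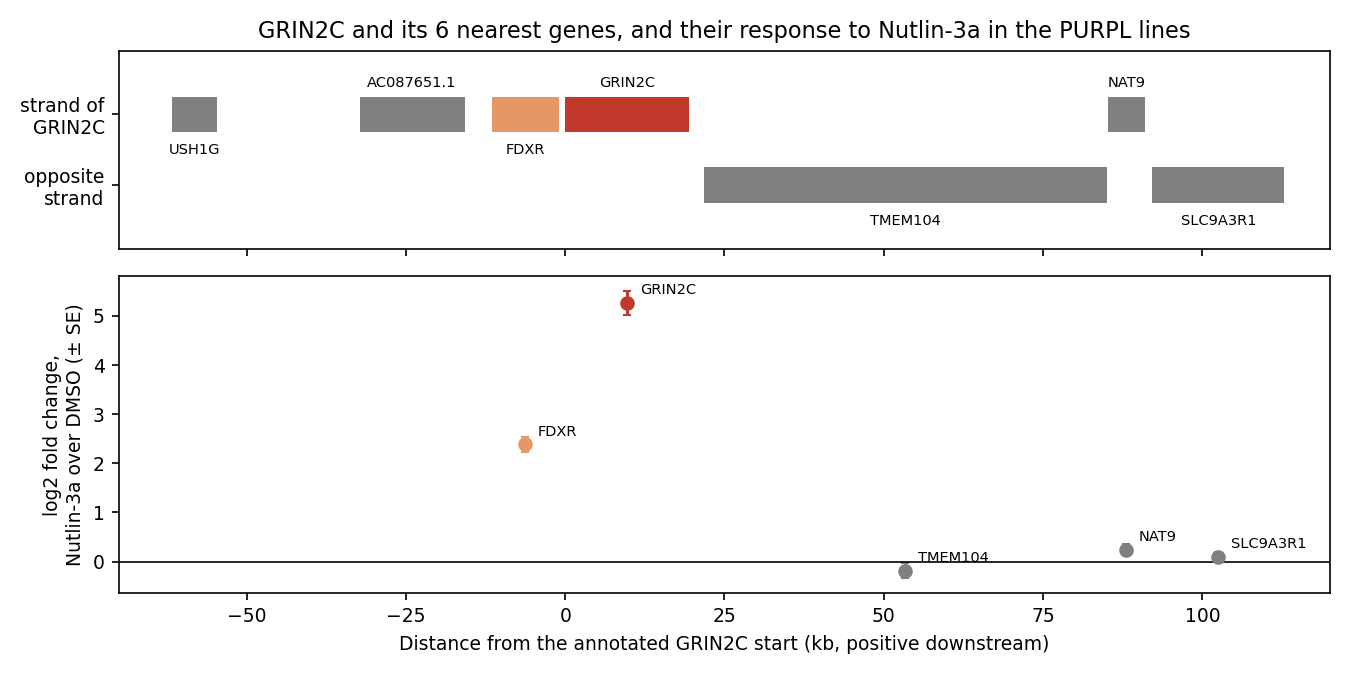
Upper panel, GRIN2C and its 6 nearest genes drawn to scale by distance from the annotated GRIN2C start in kb, with genes on the strand of GRIN2C above those on the opposite strand. Lower panel, log2 fold change of Nutlin-3a over DMSO in the PURPL lines with SE, at the middle of each gene that passed the filter, where GRIN2C at 5.27 and FDXR at 2.38 stand apart from TMEM104, NAT9 and SLC9A3R1 at -0.19 to 0.25.

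Promoter windows from 250 bases before to 50 after the gene start were searched in RefSeq (GRCh38.p14) for the p53 response element decamer, the purine-rich and pyrimidine-rich consensus that p53 binds in pairs, whose pattern reads the same on both strands. Windows were at hand for GRIN2A, GRIN2B, GRIN2D, GRIN3A and GRIN3B, 7 in all, and 0 of them held a match, which says only that the letters are not in these windows. The starts behind the windows differ in part from the coordinates given above. The GRIN2D window, chr19:48393418-48393717, lies wholly before the GRIN2D start given there. The promoters of GRIN2C, GRIN1 and GRINA were not searched. A match is present in 6.63% of all 35116 windows of this length. FDXR has a pair of windows, and 1 of them, on the minus strand at chr17:74872945-74873244, holds 1 match, whose first base lies 11 bases before the start. It is shown because FDXR is the nearest gene that rose with GRIN2C, with the match in capitals, and a match is not evidence that p53 binds there.
FDXR promoter: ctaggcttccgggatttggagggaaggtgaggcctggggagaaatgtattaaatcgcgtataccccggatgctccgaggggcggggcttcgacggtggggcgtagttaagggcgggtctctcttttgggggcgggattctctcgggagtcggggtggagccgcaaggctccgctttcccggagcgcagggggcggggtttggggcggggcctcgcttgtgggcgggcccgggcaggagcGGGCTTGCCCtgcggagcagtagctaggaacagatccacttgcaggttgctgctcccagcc

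GRIN2D, the closest relative of GRIN2C by coding sequence, gave no call in any of these tests. In the PURPL lines it had 7 to 18 counts a library with Nutlin-3a (0.0955 to 0.250 CPM, median 0.170 CPM, n = 7), against 4 to 22 counts with DMSO (0.0596 to 0.287 CPM, median 0.175 CPM, n = 8). The ranges overlapped almost fully, and the log2 change was -0.18 (SE 0.30, edgeR adjusted p = 0.659). The divergent library had 151 counts, or 1.73 CPM, and with it the change was 0.64 (SE 0.46, edgeR adjusted p = 0.282). Over the 15 fits that left out 1 library the change ran between -0.33 and 0.19, so its direction was not settled. In the NTC lines GRIN2D had 0.0969 and 0.136 CPM in NTC1 and 0.0757 and 0.175 CPM in NTC2 with Nutlin-3a. With DMSO it had 0.264 and 0.335 CPM in NTC1 and 0.133 and 0.127 CPM in NTC2. There the NTC1 values were separate by treatment and the NTC2 values overlapped, and the log2 change of the mean was -0.72 (SE 0.38, not tested).

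GRINA was well measured, with 1004 to 2795 counts in the 23 libraries. In the PURPL lines it had 18.1 to 33.9 CPM with Nutlin-3a, with a median of 19.1 CPM (n = 7), against 15.0 to 20.4 CPM with DMSO, with a median of 18.7 CPM (n = 8). The groups overlapped, with the 3 highest Nutlin-3a libraries, at 25.0, 25.7 and 33.9 CPM, above every DMSO library of these lines. The log2 change was 0.27 (SE 0.13, edgeR adjusted p = 0.114). With all 24 libraries it was 0.78 and passed the test (SE 0.27, edgeR adjusted p = 0.041), as did 34.2% of genes in that fit, the divergent library having 132.6 CPM. With the GC trend removed from the 23 libraries it was 0.09 (SE 0.04, edgeR adjusted p = 0.105). In the NTC lines GRINA had 20.5 and 19.3 CPM in NTC1 and 17.7 and 21.5 CPM in NTC2 with Nutlin-3a, against 23.5 and 30.2 CPM in NTC1 and 17.2 and 15.1 CPM in NTC2 with DMSO. NTC1 was lower and NTC2 higher with Nutlin-3a in both harvests, and the log2 change of their mean was -0.11 (SE 0.17, not tested).

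**Figure D4:**
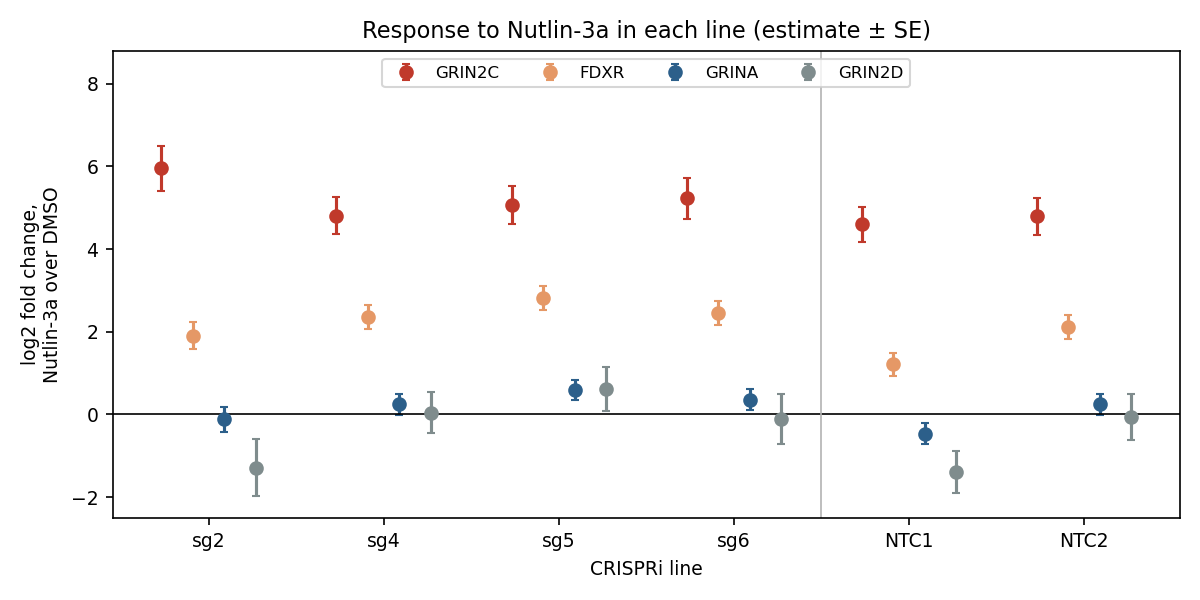
Log2 fold change of Nutlin-3a over DMSO with SE in each line for GRIN2C, FDXR, GRINA and GRIN2D, with the PURPL lines left of the NTC lines and the divergent library left out. GRIN2C lies between 4.60 and 5.96 and FDXR between 1.22 and 2.82 in all 6 lines, while GRINA (-0.46 to 0.59) and GRIN2D (-1.39 to 0.61) fall on both sides of 0.

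The level of GRINA moved with the GC slope of the library. Its highest Nutlin-3a library outside the divergent one, sg5 harvest 3 with 33.9 CPM, had the highest slope of the 11, at 0.326. Its highest DMSO library, NTC1 harvest 3 with 30.2 CPM, had the highest slope of the 12, at 0.293. As a description over libraries that share the fit of this slope, Pearson's r between the GRINA log2 level and the slope was 0.978 with Nutlin-3a (n = 11) and 0.956 with DMSO (n = 12). For FDXR it was 0.955 and 0.954, for GRIN2C 0.735 and 0.231, and for GRIN2D 0.658 and 0.669. The part of the GC slope in the GRINA and FDXR values was measured only through the fits with the trend removed, in which FDXR had a change of 2.19 (SE 0.06, edgeR adjusted p = 8.83e-15).

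**Figure D5:**
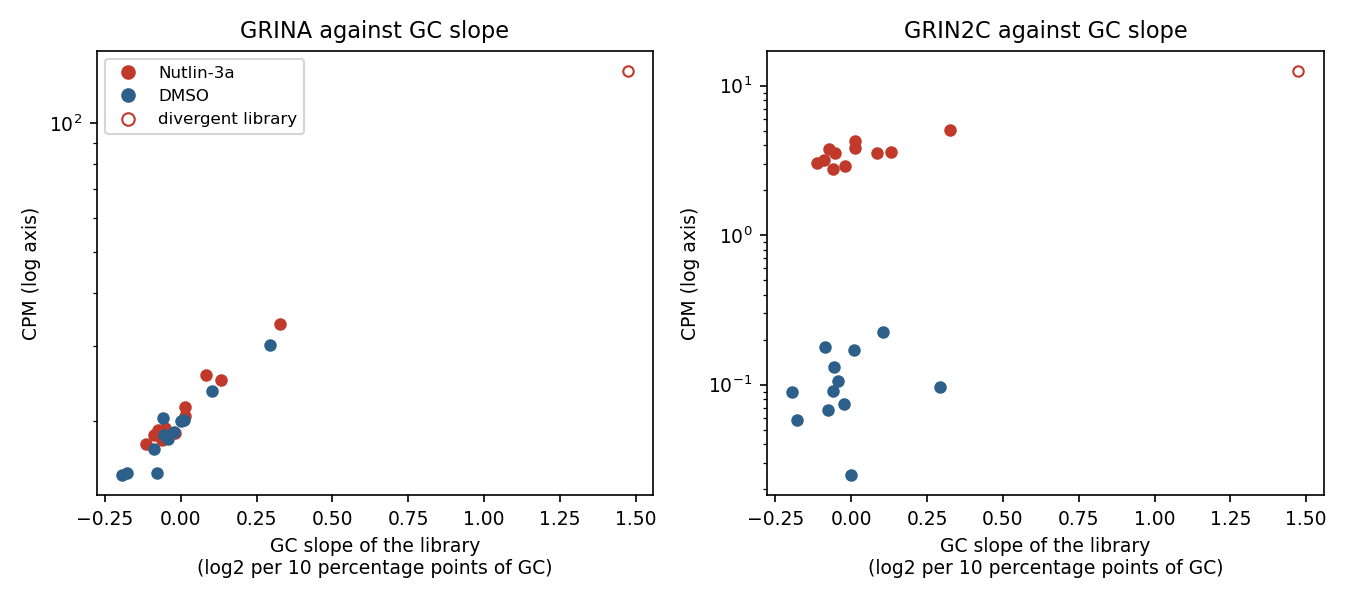
Level in CPM (log axis) of GRINA (left) and GRIN2C (right) against the GC slope of each library, with Nutlin-3a in red, DMSO in blue and the divergent library as an open circle. GRINA runs along 1 line for both treatments, up to 132.6 CPM at a slope of 1.47, whereas GRIN2C forms separate levels by treatment, at most 0.225 CPM with DMSO and from 2.77 CPM upward with Nutlin-3a.

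The guides against PURPL were then set against the non-targeting guides within each treatment, on counts summed over the harvests of each line (4 lines against 2). Only PURPL itself was called, 0.00596% of the genes tested with Nutlin-3a and 0.00601% with DMSO. With Nutlin-3a the level of GRIN2C was 3.55 ± 0.77 CPM in the PURPL lines and 3.66 ± 0.51 CPM in the NTC lines (SD, n = 7 and 4 libraries), a log2 difference of -0.04 (SE 0.12). The NTC libraries of both treatments took part in the choice of the gene, so its differences between guides are given without a test. With the divergent library the difference was 0.38 (SE 0.46). With DMSO the level was 0.0943 ± 0.0436 CPM in the PURPL lines and 0.139 ± 0.0758 CPM in the NTC lines (SD, n = 8 and 4), a log2 difference of -0.54 (SE 0.35). Line by line with Nutlin-3a, the mean level was 3.99 CPM in sg5, 3.90 in NTC1, 3.77 in sg2 (1 library), 3.43 in NTC2, 3.40 in sg4 and 3.17 in sg6, and neighbours in this order differed by less than the spread between harvests.

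GRIN2D had log2 differences of 0.36 with Nutlin-3a and -0.35 with DMSO between PURPL and NTC lines (SE 0.37 and 0.39, edgeR adjusted p = 0.841 and 0.834). GRINA had 0.17 with Nutlin-3a and -0.25 with DMSO (SE 0.11 and 0.18, edgeR adjusted p = 0.828 and 0.825). The DMSO value of GRINA rested on the control line. Without NTC1 it was 0.18 and without NTC2 -0.58, each with 1 NTC line left, whose spread was taken to be that of the PURPL lines. No test is given for these fits. FDXR did likewise, with 0.11 without NTC1 and -0.84 without NTC2. The fit without NTC2 called many other genes too, so the shift is not particular to GRINA and FDXR. The slopes on GC content were 0.104 and 0.293 in NTC1 and -0.0872 and -0.178 in NTC2 with DMSO, and their part in this was not tested.

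For the difference of the Nutlin-3a responses, PURPL minus NTC lines, 0% of 17106 genes were called by edgeR (994 at an unadjusted p under 0.05, and 5 by DESeq2 after adjustment). GRINA had 0.36 (SE 0.22, edgeR adjusted p = 0.613) and GRIN2D 0.66 (SE 0.55, edgeR adjusted p = 0.643). GRIN2C, not tested here because its NTC response chose it, had 0.49 (SE 0.31). FDXR had 0.72 (SE 0.28, unadjusted p = 0.0273, edgeR adjusted p = 0.613).

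The rest of the glutamate receptor family was sparse too. Of 11 genes for AMPA, kainate and delta receptor subunits, 3 passed the filter in the Nutlin-3a comparison, and none of these 3 passed the edgeR test in the PURPL lines. Among them, GRID1 and GRIK2 had log2 changes of 0.06 and 0.00 (edgeR adjusted p = 0.90 and 0.999). Of the 8 metabotropic glutamate receptor genes 0 passed the filter in the Nutlin-3a comparison. Between guides 2 were tested with DMSO and 1 with Nutlin-3a, and 2 were tested for the difference of responses. No member of these or of the other lists below passed the edgeR test in the guide comparisons or in the difference of responses.

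Genes for proteins that bind and signal with NMDA receptors at synapses were mostly expressed. Of 30, 25 were tested in the PURPL lines, 2 rose and 4 fell, with a median log2 change of 0.07 beside a median of 0.00 over all genes, of which 39.6% changed. The difference between the list and all genes was not tested. CASK, a membrane-associated scaffold, rose by 0.45 (SE 0.05, edgeR adjusted p = 1.28e-06), and PTK2B, the tyrosine kinase Pyk2, rose by 0.83 (SE 0.17, edgeR adjusted p = 0.00106). CNKSR2, a scaffold of Ras signalling, fell by 0.80 (SE 0.08, edgeR adjusted p = 6.41e-07), and HOMER1, which links group I metabotropic receptors to calcium stores, fell by 0.60 (SE 0.06, edgeR adjusted p = 9.16e-07). CAMK2G and DLG1 also fell, by 0.19 and 0.20. DLG4, which encodes the scaffold PSD-95, had a log2 change of -0.02 (SE 0.09, edgeR adjusted p = 0.868).

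Enzymes and transporters that supply glutamate, serine and glycine, the ligands of these receptors, showed 1 large change. Of 25, 17 were tested in the PURPL lines, 2 rose and 5 fell, with a median log2 change of -0.13, beside 39.6% of all genes that changed, so the count is near that of genes in general. GLS2, the glutaminase known as a p53 target, rose by 3.12 (SE 0.23, edgeR adjusted p = 1.32e-08). In the PURPL lines it had 0.501 to 1.30 CPM with Nutlin-3a (n = 7) and 2.27 CPM in the divergent library, against 0.0447 to 0.186 CPM with DMSO (n = 8), without overlap. PSPH, which makes serine from phosphoserine, rose by 0.63 (SE 0.12, edgeR adjusted p = 0.000347). GLUL, glutamine synthetase, fell by 0.45 (SE 0.04, edgeR adjusted p = 6.89e-08). GLUD1, SHMT1 and SLC38A1 fell by 0.20, 0.23 and 0.29. SRR, which makes the co-agonist D-serine, had a log2 change of -0.13 (SE 0.07, edgeR adjusted p = 0.137).

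In the TMBIM family, to which GRINA belongs, 5 of 6 genes were tested, 2 rose and 0 fell in the PURPL lines, with a median log2 change of 0.11, beside 39.6% of all genes that changed and 16.3% that rose. TMBIM1 rose by 0.50 (SE 0.06, edgeR adjusted p = 2.86e-06) and GHITM by 0.09 (SE 0.03, edgeR adjusted p = 0.0404). TMBIM4 and TMBIM6 had log2 changes of 0.11 and 0.02 and did not pass (edgeR adjusted p = 0.0693 and 0.674).

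The genes whose log2 level was most like that of GRIN2C over the 23 libraries, by Pearson's r among 16236 genes, were TNFRSF10B, SUSD6, RNF19B, ZNF79, AL158206.1 and BTG2, at 0.990 to 0.984. These values describe the separation of the treatments, which all of them share. Within the 11 Nutlin-3a libraries the same genes had r between -0.777 and 0.529, and within the 12 DMSO libraries between -0.295 and 0.570. FDXR had r = 0.959, rank 122, with 0.601 within the Nutlin-3a libraries and 0.350 within the DMSO libraries. GRINA had 0.340 and GRIN2D -0.20 over the 23 libraries.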

How the data were processed

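Polyadenylated RNA was sequenced from 24 cultures (TruSeq stranded mRNA libraries, RNeasy Plus RNA, per the labels' protocols). Values in the deposited table are RSEM expected counts per gene, and 5.6% to 7.16% of a library's values were not whole. Per the submitters' processing notes the tools were cutadapt, STAR, RSEM and DESeq2 with hg38, versions not given in the sources used here. Rows of the 45 pseudoautosomal copies were added to their X rows, which left 58825 of 58870 genes, and counts were rounded. Coordinates and exon lengths came from GENCODE release 29, in which 58552 IDs were found without their version and 47420 with it.

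Tests used edgeR 4.0.16 in R 4.3.3, with TMM, a filter of 10 counts in at least 2 libraries and a total of 15, the robust quasi-likelihood F test, and Benjamini-Hochberg adjustment over all genes tested, called at 0.05. Responses to Nutlin-3a came from a model of 12 group means over 23 libraries, without the divergent library, so their p-values measure the spread between harvests. Guide comparisons used line sums, 4 against 2, and the difference of responses used 12 line sums with a term for each line. GC content was known for 99.7% of genes tested. Levels are CPM with TMM over all 24 libraries. The tests were also run on simulated counts, whose outcome is not reported here and supports no result. Alternatives were all 24 libraries, RLE size factors, no filter, 1 CPM, DESeq2 1.42.0, replicate blocks, GC trends removed, other units of replication, and each library or line left out. The fit of 23 libraries with GC trends removed was chosen after seeing the data.

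Named were all 8 members, the 3 nearest genes on each side of GRIN2C, up to 4 members of each list by smallest p, the 6 genes most like GRIN2C, PURPL, CDKN1A and MDM2. CAMK2G, DLG1, DLG4, GLUD1, SHMT1, SLC38A1, SRR and TMBIM6 were added after their values were seen. The members and lists were chosen with earlier results of these data known. Long-read and HepG2 data of the study were not analysed here. Some genes that the rule names, and some sequences, are not reported here.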

Additional observations from a re-analysis of the deposited data

Results flagged for a closer look

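In 11 of 27 groups of 4 to 8 libraries examined, the highest library stood far from the others by Dixon's criterion. Its nominal rate of about 1 group in 20 is for normally distributed values. That rate cannot be set against these flags, since many groups hold only a few counts and 1 library recurs across genes. Of these, 6 are the divergent library, sg2 with Nutlin-3a from harvest 1. There GRINA stood at 132.6 CPM (next highest PURPL-line library with Nutlin-3a 33.9), FDXR at 192.3 (25.1), GRIN2C at 12.5 (5.08), GRIN2D at 1.73 (0.250), GRIN3B at 1.49 (0.0411) and GRIN1 at 0.0800 (0.0278). The other 5 rest on 1 to 3 counts in a library whose group had 0 or 1 count otherwise. They are GRIN1 in NTC1 with Nutlin-3a from harvest 3 (0.0271 CPM) and in sg5 with DMSO from harvest 1 (0.0407 CPM), and GRIN2B in sg2 with Nutlin-3a from harvest 3 (0.0137 CPM). The last 2 are GRIN3A in NTC1 with DMSO from harvest 1 (0.0132 CPM) and GRIN3B in sg4 with DMSO from harvest 1 (0.0357 CPM).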

How the results depend on the processing

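The rise of GRIN2C in the PURPL lines kept its direction and its call in all 26 alternatives, at 4.96 to 5.56, and in the 15 fits that left out 1 library it ran between 5.04 and 5.56. The filter at 1 CPM adds no support, since GRIN2C passed it only through Nutlin-3a libraries (at most 0.225 CPM with DMSO). The untested difference of GRIN2C between guides was -0.13 to 0.38 with Nutlin-3a and -1.33 to -0.33 with DMSO over the alternatives. GRINA in the PURPL lines passed the test in 6 of 26 alternatives, among them all 24 libraries (0.78), no filter (0.29), a filter at 1 CPM (0.34) and DESeq2 (0.30), and without sg5 Nutlin-3a harvest 1 (0.36) or without the sg2 line, which loses its last Nutlin-3a library when harvest 3 is left out (0.40). Differences between harvests with Nutlin-3a and with DMSO correlated over genes at 0.0457 in sg4, 0.430 in sg5, 0.289 in sg6, 0.103 in NTC1 and -0.0192 in NTC2. The value for sg2, 0.234, includes the divergent library. Libraries of the same harvest number thus deviated together in some lines and not in all, and the main tests have no block. With harvest as a replicate block the GRIN2C change was 5.25, and with a block for each pair of line and harvest it was 5.11.

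Genes called for Nutlin-3a in the PURPL lines numbered 5603 to 7495 over all alternatives and 5654 to 7145 with 1 library left out. Between guides with Nutlin-3a (1 gene called) the count was 0 with all 24 libraries, 2 with RLE factors, 6 with no filter, 19 with DESeq2, 3 with 12 group means, 8 with a replicate block and 3 without sg5. With DMSO (1 gene called) it was 2 with no filter, 11 with DESeq2, 5 with 12 group means, 7 with a replicate block, 0 without sg4, without sg6 or with harvest 3 alone, 8 without NTC1 and 6357 without NTC2. For the difference of responses (0 called) it was 7 with no filter, 5 with DESeq2, 1 without sg2 and 2979 without NTC2, where FDXR had 1.18 (edgeR adjusted p = 0.0267) and GRINA 0.74 (edgeR adjusted p = 0.0412). The cause of these shifts was not tested. Depth limits the DMSO level of GRIN2C, at 2 to 17 counts a library, and leaves 5 of 8 members untested.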
